A study of Homo sapiens with 12 samples.

Results

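NRF2, the transcription factor encoded by NFE2L2, and 8 of its best known target genes were examined across 4 groups of ARPE-19 cells, an established line of human retinal pigment epithelium (RPE). The genes were NFE2L2, NQO1, HMOX1, GCLC, GCLM, TXNRD1, SRXN1, ME1 and OSGIN1. They were found by gene symbol: each of the 9 had a single line among 40591 named lines of the count table, and all 9 were among the 15179 genes tested after a filter on low counts. Poly(A) RNA was sequenced from 3 libraries per group, 12 in all. The labels describe stable lines that had expressed an introduced open reading frame (ORF) for 4 days. GFP lines express green fluorescent protein, the control ORF. GSTA4 lines express a glutathione transferase of the alpha class that conjugates 4-hydroxynonenal, a product of lipid peroxidation. OSK lines express the reprogramming factors, read here as POU5F1 (OCT4), SOX2 and KLF4. WT cells have no ORF in their labels and no stated day. The labels name neither the promoter that drives an ORF, nor an oxidant, nor whether a group rests on 1 stable line, 1 clone or several cultures. A difference between groups therefore cannot be told apart from a difference between lines, and p-values measure the spread between these libraries, which may be technical.

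NRF2 is held at low levels in unstressed cells because KEAP1 presents it to a CUL3 ubiquitin ligase for degradation. Oxidants and electrophiles modify KEAP1, after which NRF2 accumulates, pairs with a small MAF protein (MAFF, MAFG or MAFK) and binds antioxidant response elements near genes of quinone reduction, heme breakdown, glutathione and thioredoxin metabolism and NADPH supply. Because much of this control acts on the protein, the mRNA of NFE2L2 is an incomplete guide to the activity of the factor. In the RPE, which handles light, high oxygen tension and the oxidised lipids of photoreceptor outer segments, this pathway is a main antioxidant defence.

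The core of the antioxidant response element, TGACNNNGC, was searched for on both strands of RefSeq promoters (250 bases before to 50 bases after a start site, assembly GRCh38.p14). It was present in 13.3% of 35116 promoters. Of the 9 genes, 8 had a promoter entry; HMOX1 had none. A match was found for 3 of them, GCLM, TXNRD1 and ME1. Some genes have more than 1 promoter entry, and counted by entry, as in the 13.3%, 4 of 10 had a match. The 30-base windows that hold the matches upstream of a start site are shown because their genes moved in different directions in the measurements that follow. Each is written 5′ to 3′ on the strand of the gene, with the motif in capitals.
GCLM, chr1:93909445-93909474, minus strand, motif at -34 to -26 from the start site: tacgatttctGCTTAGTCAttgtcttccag
TXNRD1, chr12:104215670-104215699, plus strand, motif at -99 to -91: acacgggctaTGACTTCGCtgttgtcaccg
TXNRD1 from a second start site, chr12:104286920-104286949, plus strand, motif at -102 to -94: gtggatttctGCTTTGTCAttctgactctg
ME1, chr6:83431169-83431198, minus strand, motif at -137 to -129: tctcctgccaTGACTCAGCgcttctcgcag
The GCLM match and the match at the second TXNRD1 start read TGACTAAGC and TGACAAAGC on the opposite strand. Further matches, 1 in TXNRD1 and 1 in ME1, lay across or after the start site and are not shown. A match is a description of these letters, and its absence from a window says nothing of binding elsewhere.

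Total counts on named lines ran from 12526826 to 16940870 per library, so the limit that a count of 0 allows, 3 reads, was worth 0.177 to 0.228 CPM (a count divided by the TMM-scaled library size). The ORF genes matched the labels, with GSTA4 at 415 ± 17.6 CPM (SD, n = 3) in its own lines against at most 20.2 ± 2.61 elsewhere, and POU5F1, SOX2 and KLF4 at 778, 627 and 927 CPM in OSK against at most 1.57 elsewhere. Cells carried RPE genes such as PMEL, OTX2 and MITF together with the keratins KRT8 and KRT18, while RPE65 had at most 10 reads and TTR at most 4 in any library. The summed level of 15 RPE markers ran from 2419 to 2659 CPM in WT libraries and from 2187 to 2519.8 CPM in GFP libraries, but from 1572 to 1646 CPM with GSTA4 and from 1389 to 1459 CPM with OSK. KRT8 made up much of this sum, at 1245 CPM in WT and 842 CPM in GFP. Counted by gene, 8 of the 12 RPE markers tested were higher and 2 lower in GFP than in WT, and 3 were higher and 7 lower in GSTA4 than in WT. In OSK, 2 were higher and 5 lower than in WT. Against GFP, 1 was higher and 8 lower in GSTA4, and 0 were higher and 11 lower in OSK. Of all genes, 22.2% passed an adjusted p of 0.05 in GFP against WT, 38.6% in GSTA4 against WT and 45.4% in OSK against WT. The shares against GFP were 29.2% in GSTA4 and 45.9% in OSK. Macrophage markers summed to at most 1.67 CPM and photoreceptor markers to at most 5.62 CPM. The 4 endothelial markers summed to 70.9 to 94.3 CPM in WT and 58.2 to 72.4 CPM in GFP, then 36.1 to 38.6 CPM with GSTA4 and 23.5 to 26.5 CPM with OSK. The 6 fibroblast markers summed to 765 to 786 CPM in WT and 707 to 775 CPM in GFP, then 528 to 557 CPM with GSTA4 and 337 to 396 CPM with OSK. Of these, KDR, PDGFRB and COL1A1 held nearly all reads, while PECAM1 and CDH5 had at most 12 reads in any library, DCN at most 2 and LUM 0. The lower endothelial sum in OSK was that of KDR. VWF went the other way, from 2 to 7 reads per WT library up to 23 to 43 per OSK library. The 5 proliferation genes summed to 106 to 113 CPM in WT and 212 to 214 CPM in GFP, with 173 to 179 CPM in GSTA4 cells and 412 to 466 CPM in OSK cells. Mitochondrially encoded genes held 5.99% to 6.06% of reads in WT and 6.05% to 6.54% in GFP, with 7.55% to 7.82% in GSTA4 and 6.81% to 6.89% in OSK cells. The part of these differences in the values of the NRF2 genes was not tested. In bulk RNA, fewer cells with a transcript and less of it per cell cannot be told apart. WT replicate 1 stood apart from WT replicates 2 and 3, with a chi-square per degree of freedom of 15.0 and 17.4 over genes, against 2.54 to 7.12 for the other pairs within a group. In GFP replicate 1, 27349 named genes were detected, more than the 19488 to 22073 of any other library. Leaving out GFP replicate 1 changed the call of none of the 9 genes in any of the 6 comparisons.

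**Figure D1:**
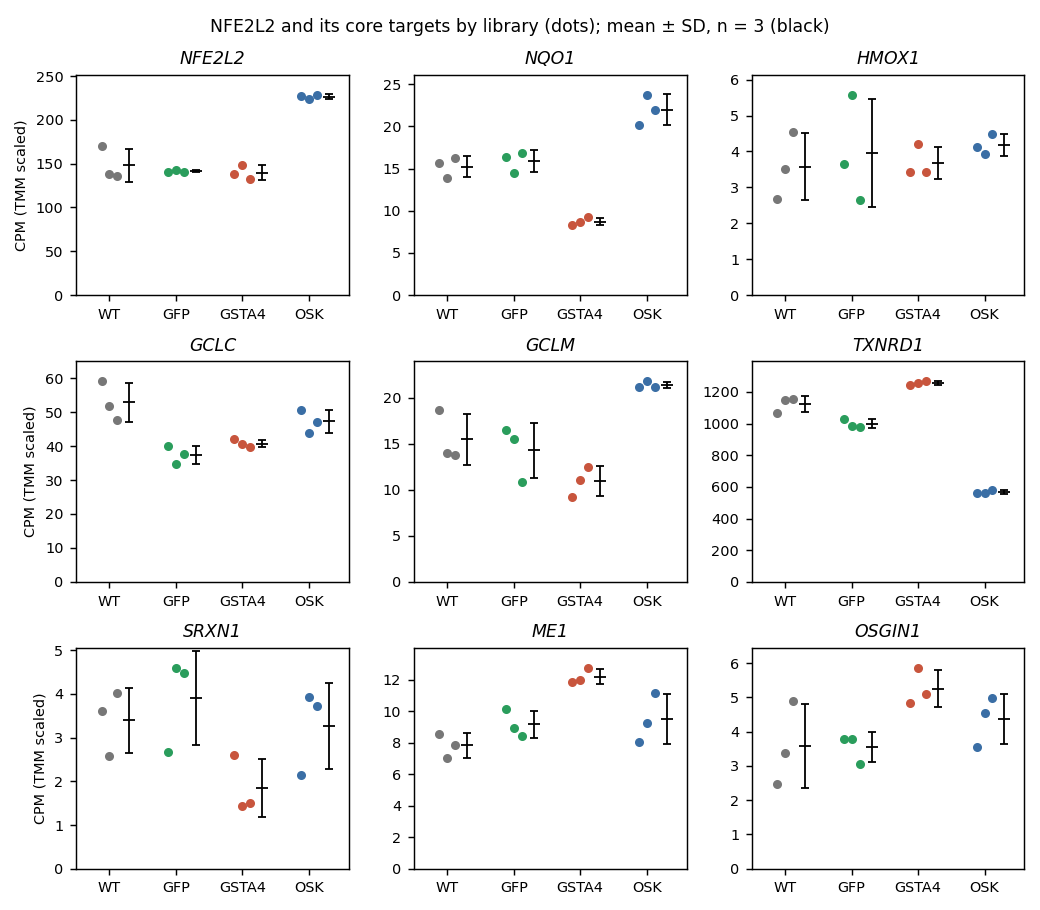
CPM of each of the 9 genes on linear axes from 0, with 1 point per library and, in black, the mean ± SD of each group of 3. NFE2L2 was between 223 and 229 CPM in OSK, above every other library, NQO1 was lowest in GSTA4 and highest in OSK, and TXNRD1 was highest in GSTA4 and lowest in OSK.

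NFE2L2 mRNA was higher in OSK cells than in each of the other 3 groups. The gene lies at chr2:177227595-177392697 on the minus strand (GENCODE 29, GRCh38). Its level was 169.9, 138 and 136 CPM in the WT libraries and 140.3, 143 and 141 CPM in GFP. It was 138, 149 and 132 CPM in GSTA4 and 228, 223 and 229 CPM in OSK. The OSK libraries all lay above the other 9, whose ranges overlapped. OSK exceeded GFP by 1.602-fold (log2 fold change 0.68, SE 0.0724, edgeR adjusted p = 1.43e-07), and it exceeded GSTA4 and WT by log2 fold changes of 0.70 and 0.61 (adjusted p = 7.19e-08 and 5.04e-07). GSTA4 and GFP differed by -0.02 (SE 0.073, adjusted p = 0.867), and GFP and WT by -0.07 (adjusted p = 0.566), neither past the threshold of 0.05 (p-values adjusted over all 15179 genes of a comparison, edgeR quasi-likelihood test). In the annotation 20.9% of the exon bases of NFE2L2 are shared with AGPS and with 2 noncoding genes.

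NQO1 encodes the quinone reductase that is often used as a readout of NRF2 activity. It was lowest in GSTA4 cells and highest in OSK cells. The gene lies at chr16:69706996-69726951 on the minus strand. Its level was 15.7, 13.9 and 16.2 CPM in WT and 16.4, 14.5 and 16.8 CPM in GFP, which overlapped. It was 8.31, 8.62 and 9.21 CPM in GSTA4 and 20.1, 23.8 and 21.99 CPM in OSK. Every GSTA4 library was below, and every OSK library above, all 6 control libraries. Relative to GFP, NQO1 fell to 0.548 of its level in GSTA4 (log2 fold change -0.87, SE 0.119, edgeR adjusted p = 1.14e-05) and rose in OSK (log2 fold change 0.47, SE 0.109, edgeR adjusted p = 0.00152). OSK exceeded GSTA4 directly by 2.52-fold (log2 fold change 1.33, SE 0.116, adjusted p = 5.48e-09), the widest separation of group means among the 9 genes. The genes whose pattern over the 12 libraries lay closest to that of NQO1 were PTPRE, a receptor-type tyrosine phosphatase gene, SC5D and SQLE. Their root mean square differences from it were 0.137, 0.138 and 0.138 on the log2 scale among 13681 candidates, against a standard deviation of NQO1 itself of 0.503. An antisense gene, AC092115.2, shares 17.7% of the exon bases of NQO1, and the strand setting of the counting is not given in the sources used here.

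HMOX1 encodes heme oxygenase 1, which opens the heme ring and releases iron, carbon monoxide and biliverdin. It showed no difference past the threshold in any comparison. The gene lies at chr22:35380361-35394214 on the plus strand. Its level was 2.67, 3.52 and 4.54 CPM in WT and 3.65, 5.58 and 2.65 CPM in GFP. It was 3.43, 4.198 and 3.44 CPM in GSTA4 and 4.12, 3.92 and 4.497 CPM in OSK, and all 4 groups overlapped. These values rest on 39 to 78 reads per library. The log2 fold change was -0.10 in GSTA4 against GFP (SE 0.262, edgeR adjusted p = 0.805) and 0.08 in OSK against GFP (SE 0.259, adjusted p = 0.829).

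GCLC and GCLM encode the catalytic and the modifier subunit of glutamate-cysteine ligase, the rate-limiting enzyme of glutathione synthesis. Both rose in OSK against GFP. GCLC fell in GFP against WT, where GCLM did not pass the threshold (log2 fold change -0.12, adjusted p = 0.619). GCLC lies at chr6:53497341-53616970 and GCLM at chr1:93885205-93909456, both on the minus strand. GCLC was highest in WT, at 59.02, 51.8 and 47.8 CPM, and lowest in GFP, at 40.1, 34.8 and 37.6 CPM. It was 41.9, 40.6 and 39.7 CPM in GSTA4 and 50.7, 43.9 and 47.2 CPM in OSK. No GFP library reached the lowest WT library, and no GFP library reached the lowest OSK library. GCLC thus fell from WT to the GFP control (log2 fold change -0.50, SE 0.0865, edgeR adjusted p = 0.000382) and was higher in OSK than in GFP (log2 fold change 0.33, SE 0.0872, edgeR adjusted p = 0.00364), while OSK and WT differed by -0.16 (adjusted p = 0.13). GSTA4 and GFP differed by 0.12 (adjusted p = 0.335). GCLC was below WT in GSTA4 as well (-0.38, adjusted p = 0.00159). The difference between OSK and WT passed the threshold without WT replicate 3 (adjusted p = 0.0474) or with library size alone as the scaling (0.045).

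GCLM was 18.7, 13.9 and 13.7 CPM in WT and 16.5, 15.5 and 10.9 CPM in GFP. It was 9.27, 11.1 and 12.5 CPM in GSTA4 and 21.2, 21.7 and 21.1 CPM in OSK. The OSK libraries were above all others, and the other 3 groups overlapped in part. GCLM rose in OSK against GFP (log2 fold change 0.59, SE 0.15, edgeR adjusted p = 0.00311) and stood 1.95-fold above GSTA4 (log2 fold change 0.97, adjusted p = 2.34e-05). GSTA4 differed from GFP by -0.38 (SE 0.159, adjusted p = 0.0794), not past the threshold. That difference passed without GFP replicate 3 (adjusted p = 0.0114) or without WT replicate 1 (0.0369). Against WT, GCLM was lower in GSTA4 (-0.50, adjusted p = 0.0151), a call lost without GSTA4 replicate 1 (0.0852) or WT replicate 1 (0.0886). It was higher in OSK than in WT (0.47, adjusted p = 0.0136), a call lost without WT replicate 2 (0.0582) or WT replicate 3 (0.0656). Per kilobase of exon, GCLM was below GCLC in every library. The ratio of GCLM to GCLC was 0.505, 0.429 and 0.458 in WT and 0.656, 0.709 and 0.461 in GFP. It was 0.352, 0.436 and 0.502 in GSTA4 and 0.667, 0.79 and 0.715 in OSK. The OSK ratios lay above those of WT and GSTA4 and overlapped those of GFP.

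TXNRD1 encodes the cytosolic thioredoxin reductase, a selenoprotein that keeps thioredoxin reduced with electrons from NADPH. It was by far the most abundant of the 9 transcripts per kilobase of exon, at 168 CPM per kb in WT against 24.7 for NFE2L2, the next. It lies at chr12:104215779-104350305 on the plus strand. Its level was 1064, 1149 and 1156 CPM in WT and 1032, 985 and 981 CPM in GFP. It was 1242, 1255 and 1266 CPM in GSTA4 and 561, 564 and 584 CPM in OSK. The 4 groups did not overlap at any point in the order GSTA4, WT, GFP, OSK. The changes of TXNRD1 against GFP were opposite in sign to those of NQO1. It rose in GSTA4 relative to GFP (log2 fold change 0.33, SE 0.0559, edgeR adjusted p = 0.000137) and fell in OSK relative to GFP (log2 fold change -0.81, SE 0.0564, edgeR adjusted p = 2.5e-10). OSK stood at 0.454 of the GSTA4 level (log2 fold change -1.14, SE 0.0567, adjusted p = 8.14e-13) and differed from WT by -0.98 (adjusted p = 1e-11). The smaller differences lost their calls under some alternatives. GFP against WT (-0.17, adjusted p = 0.0349) lost its call without GFP replicate 2, GFP replicate 3, WT replicate 2 or WT replicate 3, with adjusted p-values of 0.101, 0.0811, 0.0989 and 0.106, and with only the 6 libraries compared (0.144). GSTA4 against WT (0.16, adjusted p = 0.0285) lost it without GSTA4 replicate 1, 2 or 3 or without WT replicate 1, with adjusted p-values of 0.0517, 0.0741, 0.0862 and 0.101, and with no filter (0.0839). The closest patterns to that of TXNRD1 were those of APH1B, a gamma-secretase subunit gene, EPHA4, an ephrin receptor gene, and DOCK6, with root mean square differences of 0.0821, 0.094 and 0.0966 against its own standard deviation of 0.459.

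SRXN1 encodes sulfiredoxin, which returns overoxidised peroxiredoxins to their active form. It was low in GSTA4 cells. It lies at chr20:646615-653370 on the minus strand. Its level was 3.604, 2.57 and 4.01 CPM in WT and 2.66, 4.58 and 4.48 CPM in GFP. It was 2.602, 1.42 and 1.51 CPM in GSTA4 and 2.13, 3.92 and 3.72 CPM in OSK. All GSTA4 libraries lay below the lowest GFP library, by a small margin for GSTA4 replicate 1, but that library lay above the lowest WT and the lowest OSK library. The WT, GFP and OSK groups overlapped. SRXN1 fell in GSTA4 against GFP (log2 fold change -1.07, SE 0.316, edgeR adjusted p = 0.0144), on 19 to 41 reads per GSTA4 library and 35 to 66 per GFP library. The call was lost without GFP replicate 2, GFP replicate 3, GSTA4 replicate 2 or GSTA4 replicate 3 (adjusted p = 0.0602, 0.0518, 0.0691 and 0.0651). GSTA4 was also below WT (-0.87, adjusted p = 0.0347), which was lost without WT replicate 1 (0.0579), WT replicate 3 (0.12), GSTA4 replicate 2 (0.132) or GSTA4 replicate 3 (0.127). OSK and GFP differed by -0.26 (SE 0.296, adjusted p = 0.499). In GENCODE 29 a second protein-coding gene, AL121758.1, covers 85% of the exon bases of SRXN1 on the same strand. Its symbol is not among the named lines, and how reads in the shared bases were assigned is not known here. The closest pattern among other genes was that of TBC1D10C (0.255 against an own standard deviation of 0.547), followed by EPHX4 (0.314) and ICAM1 (0.318).

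ME1 encodes cytosolic malic enzyme, which makes NADPH from malate. It was highest in GSTA4 cells. It lies at chr6:83210389-83431071 on the minus strand. Its level was 8.57, 7.04 and 7.84 CPM in WT and 10.1, 8.95 and 8.41 CPM in GFP. It was 11.9, 11.99 and 12.7 CPM in GSTA4 and 8.03, 9.23 and 11.2 CPM in OSK. Every GSTA4 library was above the other 9, while GFP and OSK overlapped. ME1 rose in GSTA4 against GFP (log2 fold change 0.41, SE 0.144, edgeR adjusted p = 0.0352) and against WT (log2 fold change 0.64, SE 0.145, edgeR adjusted p = 0.00152). The first call was lost without GFP replicate 2 (0.0985), GFP replicate 3 (0.127), or GSTA4 replicate 1 (0.0602), 2 (0.0677) or 3 (0.0975), values that are all adjusted p. The second was kept in each of the 19 alternatives run. OSK and GFP differed by 0.05 (SE 0.147, adjusted p = 0.803).

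OSGIN1 encodes a growth inhibitor induced by oxidative stress. It did not pass the threshold in any of the 6 comparisons. It lies at chr16:83948282-83966332 on the plus strand. Its level was 2.49, 3.37 and 4.89 CPM in WT and 3.797, 3.79 and 3.05 CPM in GFP. It was 4.82, 5.85 and 5.08 CPM in GSTA4 and 3.55, 4.55 and 4.99 CPM in OSK. The GSTA4 libraries lay above all GFP libraries and overlapped WT and OSK. The log2 fold change of GSTA4 against GFP was 0.56 (SE 0.238, edgeR adjusted p = 0.0819), and it passed without WT replicate 1 (adjusted p = 0.0456). Against WT it was 0.54 (adjusted p = 0.0749) and passed without WT replicate 3 (0.0122).

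**Figure D2:**
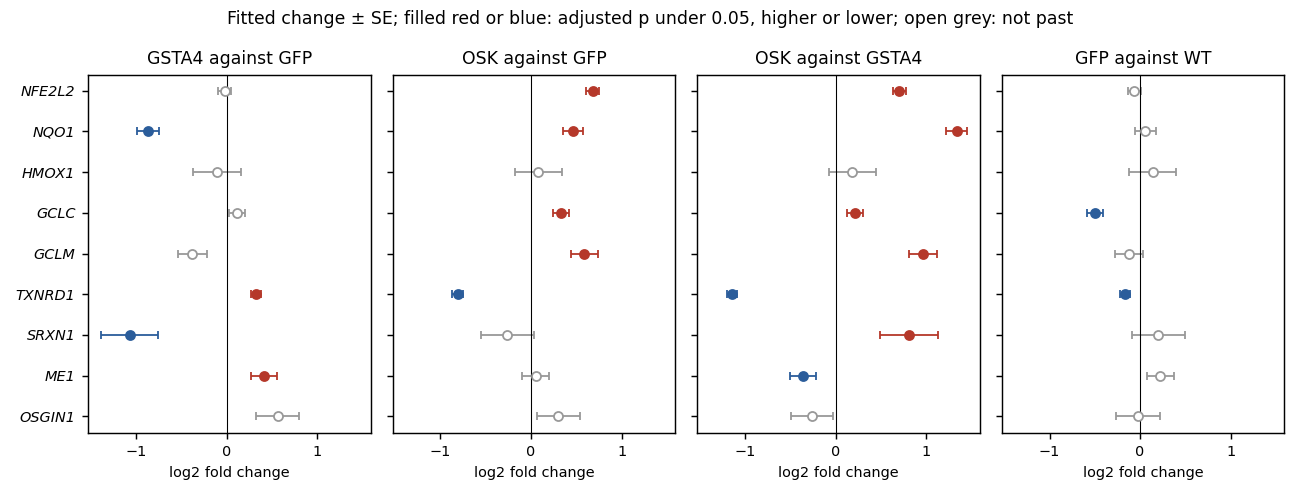
Log2 fold change of each of the 9 genes with its SE (bars) in 4 comparisons, with filled points where the adjusted p was under 0.05. GSTA4 against GFP showed NQO1 at -0.87 beside TXNRD1 at 0.33, and OSK against GFP showed NFE2L2 at 0.68 beside TXNRD1 at -0.81.

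Read by comparison, the 9 genes did not move as a block. In GSTA4 against GFP, 2 were higher (TXNRD1 and ME1), 2 were lower (NQO1 and SRXN1) and 5 did not pass the threshold. Of all genes tested in that comparison, 29.2% passed, 14.7% higher and 14.6% lower. The groups did not overlap for 5 of the 9, against 42.3% of all genes. The median log2 fold change of the 9 was -0.02, against 0.01 over all genes. Counts for the 9 were fragile here: 2 passed without GFP replicate 2, without GSTA4 replicate 2 or without GSTA4 replicate 3, 3 passed without GFP replicate 3 or without GSTA4 replicate 1, and 6 passed without WT replicate 1. NQO1 and TXNRD1 kept their calls in each of the 19 alternatives run.

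In OSK against GFP, 4 of the 9 were higher (NFE2L2, GCLM, NQO1 and GCLC), TXNRD1 was lower and 4 did not pass. The shares over all genes were 45.9% passing, 23.1% higher and 22.8% lower. With library size alone in place of TMM, 40.0% of the calls over all genes were higher, against 50.4%, and the same numbers of the 9 genes were higher and lower. Groups did not overlap for 5 of the 9, against 54.7% of all genes, and the medians were 0.30 for the 9 and -0.02 for all genes. All 5 calls were kept in each of the 19 alternatives. The comparisons of GSTA4 and of OSK share the 3 GFP libraries, so their values stand side by side without a test of likeness.

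In GFP against WT, which carries the difference between a control ORF line and cells without an ORF, GCLC and TXNRD1 were lower and 7 did not pass. Over all genes 22.2% passed, 11% higher and 11.2% lower. The 2 groups did not overlap for 2 of the 9, against 34.6%. Without GFP replicate 2, GFP replicate 3, WT replicate 2 or WT replicate 3, 1 of the 9 passed. This comparison shares its GFP libraries with the 2 above.

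OSK against GSTA4, the direct comparison of the 2 ORF groups, had the most calls of the 6 comparisons. Of the 9, 5 were higher in OSK (NQO1, GCLM, SRXN1, NFE2L2 and GCLC) and 2 were lower (TXNRD1 and ME1), with HMOX1 and OSGIN1 not past the threshold. Over all genes 47.8% passed, 24.1% higher and 23.8% lower, and groups did not overlap for 6 of the 9 against 58%. The calls of NFE2L2, NQO1, GCLM and TXNRD1 were kept in each of the 19 alternatives. The call of GCLC (0.21, adjusted p = 0.0478) was lost without GSTA4 replicate 1, 2 or 3, OSK replicate 1 or 3, or WT replicate 2, with adjusted p up to 0.157. It was also lost with library size alone (0.198) and no filter (0.0704). The call of ME1 (-0.36, adjusted p = 0.0418) was lost without GFP replicate 2 or 3, any GSTA4 replicate, or OSK replicate 1 or 2, up to 0.22. It was also lost with all libraries under DESeq2 (0.0675), RLE scaling (0.0522) and no filter (0.0921). The call of SRXN1 (0.81, adjusted p = 0.0428) was lost without GSTA4 replicate 2 or 3 or OSK replicate 2 or 3, up to 0.162, and with library size alone (0.0587). As few as 4 of the 9 passed when single libraries were left out (without GSTA4 replicate 2 or GSTA4 replicate 3).

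Against WT, 2 of the 9 were higher in GSTA4 and 4 lower, where 38.6% of all genes passed (19.7% higher, 19% lower). As few as 3 passed without WT replicate 1. In OSK, 3 were higher (NFE2L2, NQO1 and GCLM) and TXNRD1 was lower, where 45.4% of all genes passed (22.7% higher, 22.7% lower). Groups did not overlap for 5 of the 9 in GSTA4 against WT and for 4 in OSK against WT, with 49% and 53.5% of all genes. An F test for any difference among the 4 groups was passed by 7 of the 9 and by 66.9% of all genes. HMOX1 (adjusted p = 0.843) and OSGIN1 (0.11) did not pass. With single libraries left out, 6 to 8 of the 9 passed. SRXN1 (0.0306) lost its call without GFP replicate 2 or 3 or GSTA4 replicate 2 or 3 (up to 0.146), and OSGIN1 passed without WT replicate 3 (0.0217). Between the highest and the lowest group means the levels of the 9 spanned 1.17-fold (HMOX1) to 2.52-fold (NQO1).

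**Figure D3:**
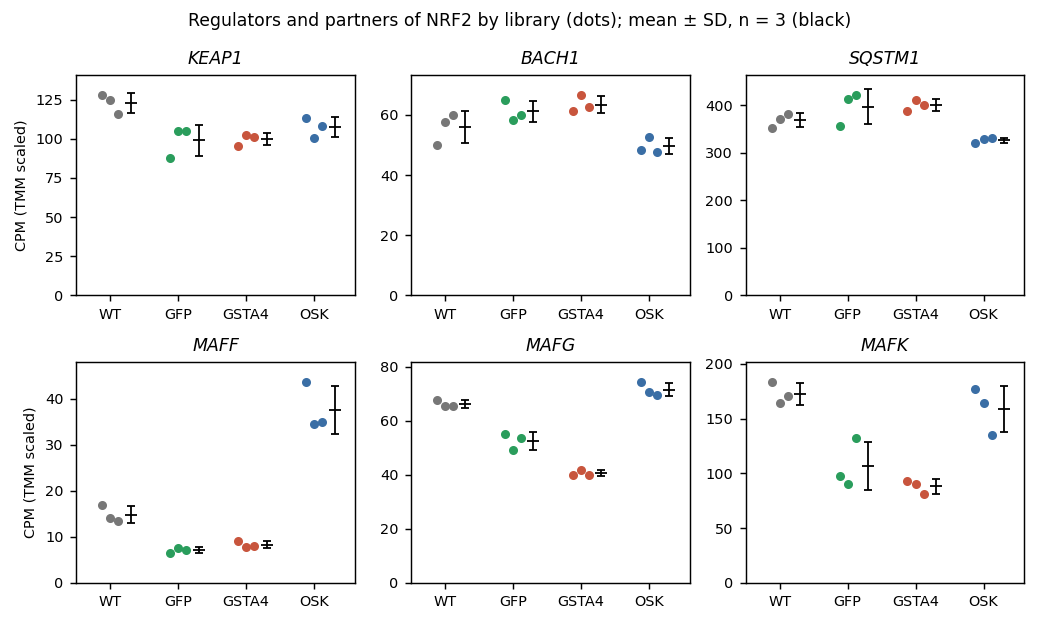
CPM of 6 regulators of NRF2 on linear axes from 0, with 1 point per library and, in black, the mean ± SD of each group of 3. MAFF lay at 37.6 ± 5.21 CPM in OSK (SD) against 7.11 ± 0.565 in GFP, while the group means of KEAP1 ran from 99.02 to 123 CPM.

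Among 18 genes that regulate or partner NRF2, of which 17 were tested, MAFF had the largest rise in OSK against GFP. MAFF, a partner that lacks an activation domain of its own, was 16.9, 14.1 and 13.5 CPM in WT and 6.53, 7.66 and 7.12 CPM in GFP. It was 9.07, 7.87 and 7.97 CPM in GSTA4 and 43.6, 34.4 and 34.8 CPM in OSK. The OSK libraries were above WT, and WT above GFP and GSTA4, without overlap. MAFF rose in OSK against GFP (log2 fold change 2.40, SE 0.13, edgeR adjusted p = 4.68e-12), and fell in GFP against WT (-1.06, adjusted p = 1.6e-05). MAFG and MAFK, the other partners, rose in OSK against GFP as well (log2 fold changes 0.44, adjusted p = 1.59e-05, and 0.57, adjusted p = 0.00023), and both were lower in GFP than in WT (-0.33, adjusted p = 0.0015, and -0.69, adjusted p = 0.000144). OSK and WT differed by 0.11, adjusted p = 0.177, for MAFG and by -0.12, adjusted p = 0.389, for MAFK. GSTA4 cells had less MAFG than GFP cells (log2 fold change -0.37, adjusted p = 0.000356). MAFF was at 0.23, adjusted p = 0.267, and MAFK at -0.28, adjusted p = 0.0694. The largest fall in that comparison was that of NFE2L3, a related factor (-0.84, adjusted p = 0.000431).

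KEAP1, the repressor of NRF2, did not pass in GSTA4 against GFP (0.01, adjusted p = 0.931) or in OSK against GFP (0.11, adjusted p = 0.209), but was lower in GFP than in WT (-0.31, adjusted p = 0.00438). KEAP1 was also lower than in WT in GSTA4 (-0.30, adjusted p = 0.00255) and in OSK (-0.19, adjusted p = 0.0321, a call lost in 4 of 19 alternatives). Its mean was 123 ± 6.36 CPM in WT cells (SD, n = 3), followed by 107 ± 6.29 with OSK, 99.9 ± 3.72 with GSTA4 and 99.02 ± 10.1 with GFP. BACH1, which represses HMOX1 and other genes at the same elements, and SQSTM1, an autophagy receptor that sequesters KEAP1, both fell in OSK against GFP (-0.30, adjusted p = 0.00373, and -0.28, adjusted p = 0.00112). OSK and WT differed by -0.17, adjusted p = 0.0786, for BACH1, which did not pass. SQSTM1 was lower in OSK than in WT (-0.17, adjusted p = 0.0326), a call lost in 6 of 19 alternatives. With GSTA4, BACH1 and SQSTM1 stood, relative to GFP, at 0.05, adjusted p = 0.652, and 0.01, adjusted p = 0.935. CUL3, the ligase scaffold, and NFE2L1, a related factor, were at -0.07, adjusted p = 0.348, and 0.09, adjusted p = 0.27, in OSK against GFP. BTRC rose in OSK against GFP (0.75, edgeR adjusted p = 5.98e-08) and against WT (0.69, adjusted p = 1.7e-07). DPP3 and NFE2L3 rose in OSK against GFP (0.28, adjusted p = 0.00328, and 0.41, adjusted p = 0.0274) and were also higher than in WT. SYVN1 and RBX1 rose in OSK against GFP (0.27, adjusted p = 0.00876, and 0.24, adjusted p = 0.0202). OSK and WT differed by 0.11, adjusted p = 0.275, for SYVN1 and by 0.05, adjusted p = 0.678, for RBX1. Over the list, 8 genes were higher, 2 were lower and 7 did not pass in OSK against GFP, while 4 were lower and 13 did not pass in GSTA4 against GFP. The same numbers, 4 lower and 13 not past the threshold, were found in GFP against WT. In OSK against WT, 4 were higher, 3 were lower and 10 did not pass, with a median of 0.02 against 0.21 in OSK against GFP. Of all genes, 45.9% passed in OSK against GFP, 45.4% in OSK against WT, 22.2% in GFP against WT and 29.2% in GSTA4 against GFP.

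Of 39 other genes of NRF2-linked pathways, 34 were tested. In OSK against GFP, 15 were higher, 5 were lower and 14 did not pass, with a median log2 fold change of 0.19. In GSTA4 against GFP, 5 were higher, 8 were lower and 21 did not pass, with a median of -0.07. In GFP against WT, 2 were higher and 8 lower, with a median of -0.06. In OSK against GSTA4, 15 were higher and 4 lower, with a median of 0.28. Against WT, OSK had 12 higher and 8 lower (median 0.07) and GSTA4 had 5 higher and 10 lower (median -0.14). The shares over all genes given above apply to these counts too. Closely related copies exist for FTH1, FTL, PRDX1 and the AKR1C genes, so reads may be split among them.

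**Figure D4:**
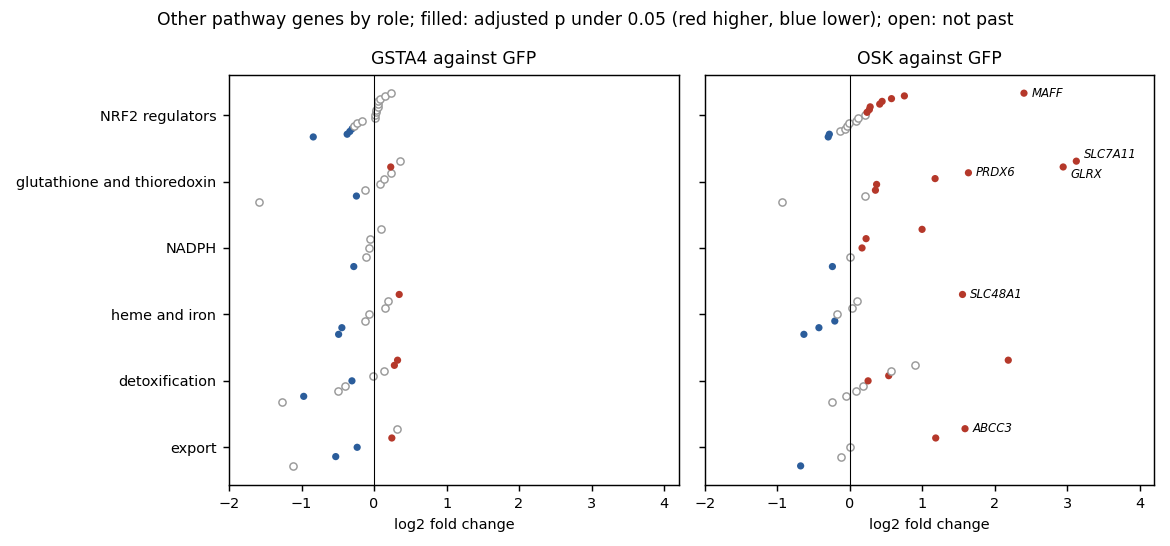
Log2 fold change of tested genes of each role list in GSTA4 against GFP and in OSK against GFP, with filled points where the adjusted p was under 0.05. SLC7A11 at 3.12 and GLRX at 2.94 lay farthest above 0 in OSK against GFP, and PIR at -0.97 was the lowest filled point in GSTA4 against GFP.

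Of 9 other glutathione and thioredoxin genes, 8 were tested. In OSK against GFP, 6 were higher and 2, GSS at 0.20 and GPX2 at -0.93, did not pass, with a median of 0.77. The shares over all genes there were 45.9% passing and 23.1% higher. SLC7A11, the cystine importer that supplies cysteine for glutathione, was 1.14, 0.859 and 1.42 CPM in GFP and 8.81, 10.7 and 10.5 CPM in OSK (log2 fold change 3.12, SE 0.259, edgeR adjusted p = 3.55e-09). GLRX, a glutaredoxin, was 8.05, 5.87 and 7.06 CPM in GFP and 46.3, 56.6 and 58.03 CPM in OSK (log2 fold change 2.94, SE 0.133, edgeR adjusted p = 2.54e-13). No OSK library of either gene overlapped GFP. PRDX6, a peroxiredoxin, rose by 1.64 and GSR, which regenerates glutathione, by 1.18 (adjusted p = 9.05e-15 and 6.98e-11). TXN, the substrate of TXNRD1, rose by 0.35 (adjusted p = 0.006), while TXNRD1 itself fell. With GSTA4, PRDX6 was higher than in GFP (0.23, adjusted p = 0.0061), PRDX1 was lower (-0.24, adjusted p = 0.00412) and 6 did not pass. In that comparison 29.2% of all genes passed.

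Of 5 NADPH genes, IDH1, cytosolic isocitrate dehydrogenase, rose in OSK against GFP (log2 fold change 1.00, SE 0.0789, edgeR adjusted p = 1.85e-09), with 2 more higher and PGD, of the pentose phosphate pathway, lower (-0.24, adjusted p = 0.00383). Of all genes, 45.9% passed in OSK against GFP, 23.1% higher and 22.8% lower. IDH1 was lower in GSTA4 than in GFP (-0.28, adjusted p = 0.0133), a call lost without GSTA4 replicate 3 (highest adjusted p over the alternatives 0.106). Among 7 heme and iron genes, SLC48A1, a heme transporter, rose in OSK (log2 fold change 1.55, SE 0.0726, edgeR adjusted p = 4.4e-13) and fell in GSTA4 (-0.44, adjusted p = 0.000128). FTH1, the heavy ferritin chain, fell in both against GFP (in OSK -0.63, adjusted p = 3.99e-05, and in GSTA4 -0.49, adjusted p = 0.00117). FTH1 was itself higher in GFP than in WT (0.36, adjusted p = 0.0174), a call lost without WT replicate 1, GFP replicate 2 or GFP replicate 3 and under DESeq2 (adjusted p up to 0.0685). GSTA4 and WT differed by -0.13, adjusted p = 0.332, and OSK and WT by -0.28, adjusted p = 0.0333. FTL, the light chain, rose in GSTA4 against GFP (0.35, adjusted p = 0.000378) and fell in OSK against GFP (-0.21, adjusted p = 0.0128).

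Of 13 detoxification genes 9 were tested. In GSTA4 against GFP, 2 were higher, among them PTGR1, prostaglandin reductase 1 (0.32, adjusted p = 0.0273), and 2 lower, among them PIR (-0.97, adjusted p = 0.0239). The shares over all genes were 14.7% higher and 14.6% lower. The call of PTGR1 was lost without GFP replicate 1, GFP replicate 3 or GSTA4 replicate 1 (adjusted p up to 0.149). That of PIR was lost without GFP replicate 2 or GSTA4 replicate 3 (up to 0.121). In OSK against GFP, 3 were higher and 6 did not pass, where 45.9% of all genes passed and 23.1% were higher. Among the 3, AKR1C3, an aldo-keto reductase, was at 0.54, adjusted p = 0.0426. That call was lost without any one of the GFP libraries, OSK replicate 1 or OSK replicate 3, or with library size alone (adjusted p up to 0.202). AKR1C3 was lower in GFP than in WT (-0.76, edgeR adjusted p = 0.0117), and OSK and WT differed by -0.23, adjusted p = 0.375. CBR1 rose in OSK against GFP (0.25, adjusted p = 0.0189), while OSK and WT differed by -0.10, adjusted p = 0.319. ALDH3A1, with a mean of 0.822 CPM over the 12 libraries, was higher in OSK than in GFP (2.18, adjusted p = 0.00895). It was also higher in OSK than in WT (3.27, adjusted p = 0.000789). AKR1B1, aldose reductase, was 285, 106 and 104 CPM in WT and 65.6, 68.6 and 69.9 CPM in GFP, with WT replicate 1 far above the other WT libraries. It fell in GFP against WT (log2 fold change -1.28, SE 0.243, edgeR adjusted p = 0.000829), by a log2 fold change of -0.63 without WT replicate 1. Of 5 export genes, ABCC3 and ABCC1, which pump glutathione conjugates, rose in OSK against GFP (1.59, adjusted p = 2.52e-06, and 1.18, adjusted p = 2.05e-12), and ABCC4 fell (-0.68, adjusted p = 5.93e-05). ABCC1 rose (0.24, adjusted p = 0.00426) and ABCC4 fell (-0.53, adjusted p = 0.0014) in GSTA4 against GFP, and ABCC3 was lower in GFP than in WT (-1.89, adjusted p = 2.22e-06). ABCC3 in OSK did not exceed its WT level (-0.30, edgeR adjusted p = 0.185), whereas ABCC1 in OSK did (edgeR adjusted p = 5.27e-12).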

How the data were processed

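Poly(A) RNA of 12 ARPE-19 libraries, 3 per group, was sequenced from a NEBNext Ultra II kit, per the labels' protocols. The authors deposited raw read counts per gene. The submitters' processing notes name STAR 2.7.1a, featureCounts 1.6.2 and human and mouse genome builds; annotation release and strand setting are not given in the sources used here. Lines without a symbol (20014 of 60605, 0.485% to 0.822% of reads) were left out.

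All 12 libraries entered 1 fit with a mean per group in edgeR 4.0.16 (limma 3.58.1, R 4.3.3), with TMM scaling, filterByExpr and the quasi-likelihood test. Tests were two-sided, with Benjamini-Hochberg adjustment over the 15179 genes tested in each of 6 comparisons, with 0.05 as the threshold. SE was the log2 fold change over the root of F. CPM were scaled by TMM. Floors cover counting error only, and no molecular identifiers are stated. The F test for any difference used the same fit. Scripts were tested on simulated data.

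Gene spans and exon lengths came from GENCODE 29 (GRCh38), matched by symbol, since the count table gives no coordinates. Promoters came from RefSeq. The 9 genes, the role lists and the tests were chosen with earlier results of these data known. Genes outside the 9 were named by a rule: 8 regulators always, and in each role list and comparison the called gene with the largest rise and the one with the largest fall, where the mean reached 1 CPM. TXN, GSR, PRDX6 and GLRX in OSK against GFP, FTL in OSK, SLC48A1 in GSTA4 and ABCC1 in OSK lie outside the rule and were named after their values were seen. The same holds for BTRC, DPP3, SYVN1, RBX1 and NFE2L3 in OSK, and for ABCC3 in OSK against WT. It also holds for CBR1 and ALDH3A1 in OSK, and for AKR1C3 in GFP and OSK against WT. Not every result that this rule names is reported here. For genes whose group means differed by at least 1 on the log2 scale, the 3 closest patterns were named.

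The fit was repeated with DESeq2 1.42.0, with RLE or library size alone as the scaling, without a filter, with a filter at a mean of 1 CPM, with the replicate number as a block, on only the 6 libraries compared, and without each library in turn. Those for genes outside the 9 were added after seeing the data.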

Additional observations from a re-analysis of the deposited data

How the results depend on the processing

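Over all alternatives, 482 of 532 values of the 9 genes that had passed the threshold still passed in the same direction, 50 no longer passed and 0 changed sign. Of 494 values that had not passed, 469 were unchanged in call and direction, 6 passed and 19 changed sign. Of 1368 values of other pathway genes, 1310 still passed and 58 did not. The number of the 9 genes past the threshold ranged, with single libraries left out, from 2 to 6 in GSTA4 against GFP (4 with all libraries), 1 to 2 in GFP against WT (2), 3 to 6 in GSTA4 against WT (6) and 4 to 7 in OSK against GSTA4 (7). In OSK against WT it ranged from 3 to 4 (4 with all libraries), and from 4 to 5 under the other alternatives. It was 5 throughout in OSK against GFP. With only the 6 libraries compared, 1 of the 9 passed in GFP against WT, where TXNRD1 had an adjusted p of 0.144; the cause was not tested. With library size alone, ME1 in OSK against GFP changed sign to a log2 fold change of -0.0208. The other changes of sign came from leaving out a library and concern differences that did not pass. In GFP against WT, GCLM ranged from -0.24 to 0.0467, HMOX1 from -0.19 to 0.37, NFE2L2 from -0.13 to 0.0417, NQO1 from -0.00708 to 0.12 and OSGIN1 from -0.24 to 0.28. In GSTA4 against GFP, HMOX1 ranged from -0.34 to 0.22 and NFE2L2 from -0.0649 to 0.0214. In GSTA4 against WT, HMOX1 ranged from -0.14 to 0.26 and NFE2L2 from -0.14 to 0.0243. In OSK against GFP, HMOX1 ranged from -0.14 to 0.42 and ME1 from -0.0756 to 0.17, and in OSK against WT SRXN1 ranged from -0.22 to 0.17. Among 18 pairs of same-numbered libraries of different groups, deviations from group means correlated from -0.0193 to 0.153, with 3 over 0.1, all of them with WT replicate 1. A library correlated best with its own number in 17 of 36 cases, each a choice among the 3 libraries of another group. The labels give the numbers no shared source and not every pair was over 0.1, so the libraries were treated as unpaired. With the replicate number as a block, the number of the 9 genes that passed was the same as without it in all 6 comparisons (4 in GSTA4 and 5 in OSK against GFP), and 4733 and 7270 of all genes passed there, against 4439 and 6962. HMOX1 and SRXN1 rest on 19 to 78 reads per library, the fewest among the 9 genes together with OSGIN1; what depth contributes to their calls was not tested.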
